A study of Mus musculus with 3 samples.

Results

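The data describe 9 mature microRNAs of white blood cells in mouse serum, chosen by name and found on the array among 1881 mouse miRNAs. They are mmu-miR-223-3p and mmu-miR-223-5p, mmu-miR-142a-3p and mmu-miR-142a-5p, mmu-miR-150-5p, mmu-miR-181a-5p, mmu-miR-155-5p, mmu-miR-146a-5p and mmu-miR-146b-5p (the species prefix is dropped from here on), and 19 of the array's 4415 probes target them. Serum came from male C57BL/6NJcl mice aged 8 weeks, after a spin of 3 min at 6000 G in a serum separator tube. RNA was taken from 200 µL of serum in each of 3 ways: with the miRNeasy serum/plasma advanced kit, with the mirVana PARIS kit, or with exoRNeasy midi columns loaded with the aqueous phase left after 700 µL of the phenol reagent QIAzol was mixed into the serum, an arm meant to measure total serum RNA. Every extract was labelled with Cy3 from 1.8 ng of RNA and hybridised to 1 array. At this equal mass of RNA, the comparison asks how the signal of each miRNA depends on the kit. It does not measure how much of a miRNA each kit recovered from the serum. Whether the kits were given the same serum, and how many mice contributed, is not stated in the labels.

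A miRNA pairs with target mRNAs mainly through its seed, bases 2 to 8 from its 5′ end, and each hairpin precursor can release a 5p and a 3p arm of which one is usually kept. miR-223 is known for its abundance in neutrophils and other myeloid cells and is also carried by platelets, whereas miR-142a is found across blood cell lineages. miR-150 is a marker of mature B and T cells, and miR-181a acts in developing lymphocytes, where it tunes the sensitivity of the T-cell receptor. miR-146a is induced by NF-κB and dampens Toll-like receptor signalling through Irak1 and Traf6. miR-146b has the same seed, and miR-155 rises in activated macrophages and lymphocytes.

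RefSeq's table for GRCm38.p6 held the mature sequence of 8 of the 9 members, at 9 loci. They are shown in lower case with the seed in capitals, because the probes read these strands and because the miR-146 pair shares its seed. The 8 sequences have 7 different seeds.
miR-223-3p: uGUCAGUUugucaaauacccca
miR-223-5p: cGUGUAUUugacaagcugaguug
miR-142a-3p: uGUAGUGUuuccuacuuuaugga
miR-142a-5p: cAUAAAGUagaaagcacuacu
miR-146a-5p: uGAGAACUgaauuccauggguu
miR-146b-5p: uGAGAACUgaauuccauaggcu
miR-155-5p: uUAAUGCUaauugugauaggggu
miR-181a-5p: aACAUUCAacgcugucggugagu

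The arm comparisons rest on hairpins that hold both strands, printed here with the 5p and then the 3p arm in capitals. Mir142 lies at chr11:87756864-87756927 on the plus strand, within the annotated span of Mir142b. Mir223 lies at chrX:96242817-96242926 on the plus strand, within the span of the lncRNA F630028O10Rik.
Mir142: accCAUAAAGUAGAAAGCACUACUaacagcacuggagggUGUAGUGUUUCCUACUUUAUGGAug
Mir223: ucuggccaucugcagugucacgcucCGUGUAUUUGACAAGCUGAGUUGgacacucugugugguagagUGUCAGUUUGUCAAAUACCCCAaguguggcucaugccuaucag

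Of the other loci, mature miR-155-5p lies at chr16:84714143-84714165 (plus strand) within Mir155hg, the lncRNA that serves as its primary transcript. miR-146a-5p lies at chr11:43374435-43374456 on the minus strand, with no other gene annotated over it, and miR-146b-5p at chr19:46342790-46342811 on the plus strand within the lncRNA Gm36493. miR-181a-5p has 2 loci of identical mature sequence, chr1:137966468-137966490 with no other gene over it and chr2:38852741-38852763 within the spans of Nr6a1 and Nr6a1os, so its probes cannot tell these loci apart.

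The 3 arrays shared 1 slide and 1 scan. A probe was called detected when over 0.5 of its spots carried the scanner software's well-above-background flag, and a miRNA when at least 1 of its probes was. Detection reached 83 miRNAs with exoRNeasy, 71 with miRNeasy advanced and 134 with mirVana PARIS. The lowest mean signal of a detected probe was 22.03, 12.4 and 9.56 in that order, and the negative-control spots averaged 5.26 ± 3.53, 4.88 ± 2.65 and 4.90 ± 2.53 (SD over 984, 990 and 988 spots), and both were highest for exoRNeasy. With 1 array per kit no test of a difference between kits was possible, and the errors below are between spots of a probe on an array and cover neither extraction nor mice.

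Leukocyte miRNAs were present with each kit, but through a small part of the list. With exoRNeasy 3 of the 9 members were detected, beside 4.41% of all 1881 miRNAs. The same 3 were detected with miRNeasy advanced, where 3.77% of all miRNAs were. With mirVana PARIS 5 of 9 were detected, beside 7.12% of all. miR-223-3p, miR-142a-3p and miR-146a-5p were detected on all 3 arrays, a pattern that 3.56% of all miRNAs showed. With mirVana PARIS alone, miR-142a-5p and miR-150-5p were detected too, as were 2.66% of all miRNAs. miR-223-5p, miR-155-5p, miR-146b-5p and miR-181a-5p were detected on no array. The list was put together from well-known blood cell miRNAs, so a share above that of all miRNAs is not a result about it.

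**Figure D1:**
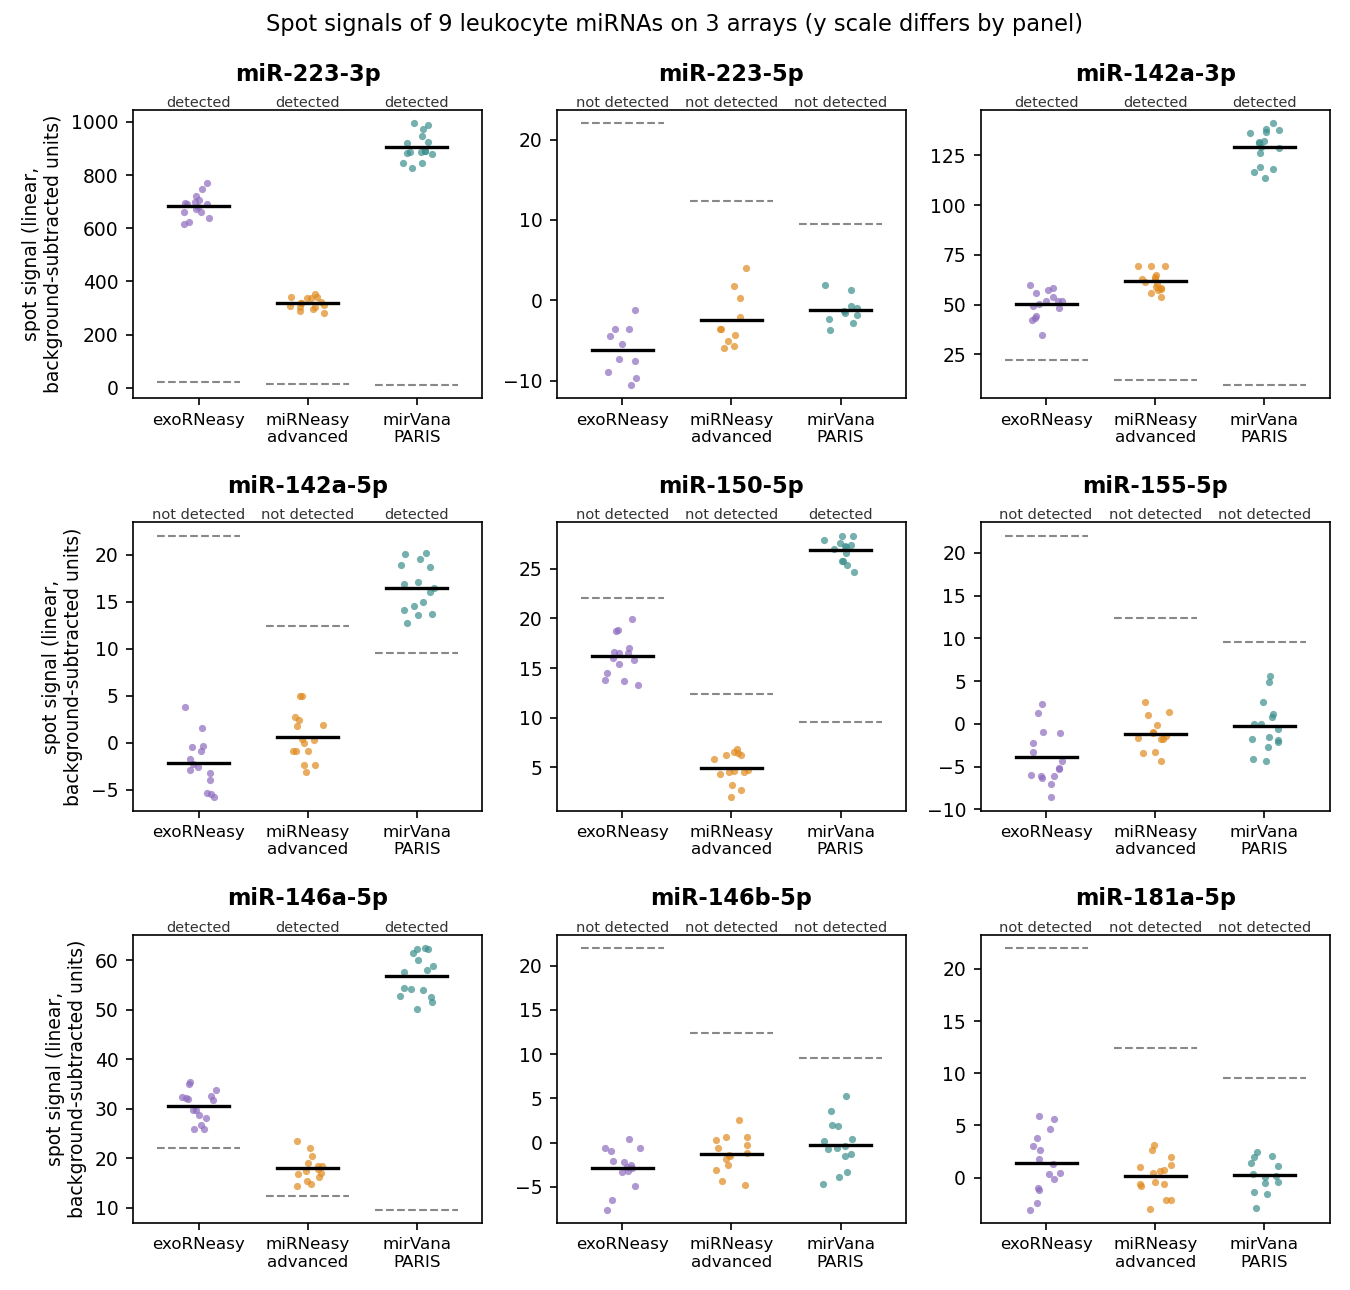
Background-subtracted spot signal (linear units, scale set per panel) of the chosen probe of each of the 9 leukocyte miRNAs on the exoRNeasy, miRNeasy advanced and mirVana PARIS arrays. Points are spots, black lines their mean, and dashed lines the lowest mean signal of any detected probe on that array (22.03, 12.4 and 9.56); miR-150-5p with exoRNeasy, at 16.2, lies under the dashed line of that array and above those of the others.

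miR-223-3p, the myeloid member, was well above background with both of its probes on each array. Its brighter probe gave 685 ± 43.0 with exoRNeasy, 318 ± 21.1 with miRNeasy advanced and 905 ± 52.3 with mirVana PARIS (SD, 15 spots each). The spots of the 3 arrays did not overlap, and mirVana PARIS was highest and miRNeasy advanced lowest. The dimmer probe kept that order, at 167 ± 10.7, 76.2 ± 4.61 and 267 ± 17.8. Before scaling the median miRNA also shifted between arrays, and overlap was not counted over all miRNAs. Separate spots, here and below, are therefore not read as a result about the members. Brightness also depends on the probe, so levels of different miRNAs are not ranked here.

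The median signal of all miRNAs differed between arrays, so each array was next scaled to the 75th percentile of its log2 signal over the 106 probes detected on all arrays. On that scale the log2 level of miR-223-3p was 2.37 with exoRNeasy, 2.10 with miRNeasy advanced and 1.80 with mirVana PARIS. Its log2 ratio was 0.27 ± 0.03 (spot SE) for exoRNeasy minus miRNeasy advanced and ranked 21 from the top among 67 miRNAs detected on both, whose median was 0.12. Against mirVana PARIS it was 0.57 ± 0.03 for exoRNeasy, at rank 29 of 80 around a median of 0.33, and 0.29 ± 0.03 for miRNeasy advanced, at rank 31 of 71 around a median of 0.18. By this probe miR-223-3p lay above the median miRNA by 0.15, 0.24 and 0.11. The dimmer probe put it 0.18 above the median between exoRNeasy and miRNeasy advanced, but below it in both comparisons with mirVana PARIS, at −0.03 and −0.18 from it, with log2 ratios of 0.30 ± 0.03 and −0.003 ± 0.03. Its side of the median against mirVana PARIS thus depended on the probe. Before scaling the log2 differences were 1.11, −0.40 and −1.51, and the median miRNA moved by 0.96, −0.64 and −1.63, so the sign of a single ratio for this miRNA followed the scaling.

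The 5p arm of miR-223 was not detected on any array. Its 3 probes had mean signals of −7.59 to −6.21 with exoRNeasy, −4.71 to −2.38 with miRNeasy advanced and −3.86 to −1.19 with mirVana PARIS. Each mean lay under the mean of the negative controls, as did the median undetected probe of each array. The arms are read by different probes, so these signals give no ratio of strands.

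miR-142a-3p, the strand common to blood cells, followed another order. Its chosen probe gave 50.2 ± 6.81 with exoRNeasy, 61.7 ± 4.96 with miRNeasy advanced and 129 ± 8.64 with mirVana PARIS (SD, 15 spots each). Spots with mirVana PARIS stood apart from the rest, while those of the exoRNeasy array, 34.8 to 59.6, overlapped with those of the miRNeasy advanced array, 53.8 to 69.6. It was thus dimmer with exoRNeasy than with miRNeasy advanced although the median miRNA was brighter there. The second probe gave 11.7 ± 2.95, 16.7 ± 2.30 and 33.7 ± 3.61 in the same order, with 0 of 15 spots well above background with exoRNeasy and 15 of 15 on the others.

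After scaling, the log2 level of miR-142a-3p was −1.41 with exoRNeasy, −0.27 with miRNeasy advanced and −1.01 with mirVana PARIS. For exoRNeasy minus miRNeasy advanced the log2 ratio of −1.14 ± 0.06, or 2.21-fold lower, was the lowest of 67 and lay −1.27 from their median. It was the 1 member of the 3 compared that was at least 2-fold lower and past 3 spot errors. It was also the 1 miRNA so called among all 67, so their share of 1.49% is miR-142a-3p itself. The next lowest, miR-5126, had −0.996 ± 0.04 and only just missed the 2-fold call. At least 2-fold higher were 0 of 3 members, beside 2.99% of the 67. Of the 18 alternatives run, some, such as the changes of floor, left the miR-142a-3p ratio at its reported value. Its negative sign held under all 18, from −1.44 to −0.19, and the 2-fold call did not. Without scaling, with the 75th percentile over all probes, with the labelling or the hybridisation spike-in, with normexp background correction and with uncorrected signal, 0 members were 2-fold lower.

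Against mirVana PARIS the log2 ratio of miR-142a-3p was −0.40 ± 0.06 for exoRNeasy, rank 10 from the bottom of 80, and 0.74 ± 0.04 for miRNeasy advanced, rank 16 from the top of 71. The first was −0.0142 with normexp, and the second turned to −1.07 without scaling. Between exoRNeasy and mirVana PARIS 0 of 3 members were past 2-fold in either direction, beside 25% of 80 miRNAs higher and 2.5% lower. Between miRNeasy advanced and mirVana PARIS it was also 0 of 3, beside 14.1% of 71 higher and 2.82% lower. Before scaling, miRNeasy advanced was at least 2-fold lower than mirVana PARIS for 3 of 3 members, as for 80.3% of the 71 and with 0% higher. Likewise unscaled, exoRNeasy was at least 2-fold above miRNeasy advanced for 1 of 3, miR-223-3p, beside 43.3% of the 67. It was at least 2-fold below mirVana PARIS for 1 of 3, miR-142a-3p, beside 27.5% of the 80, and above it for 0 of 3, beside 6.25%.

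**Figure D2:**
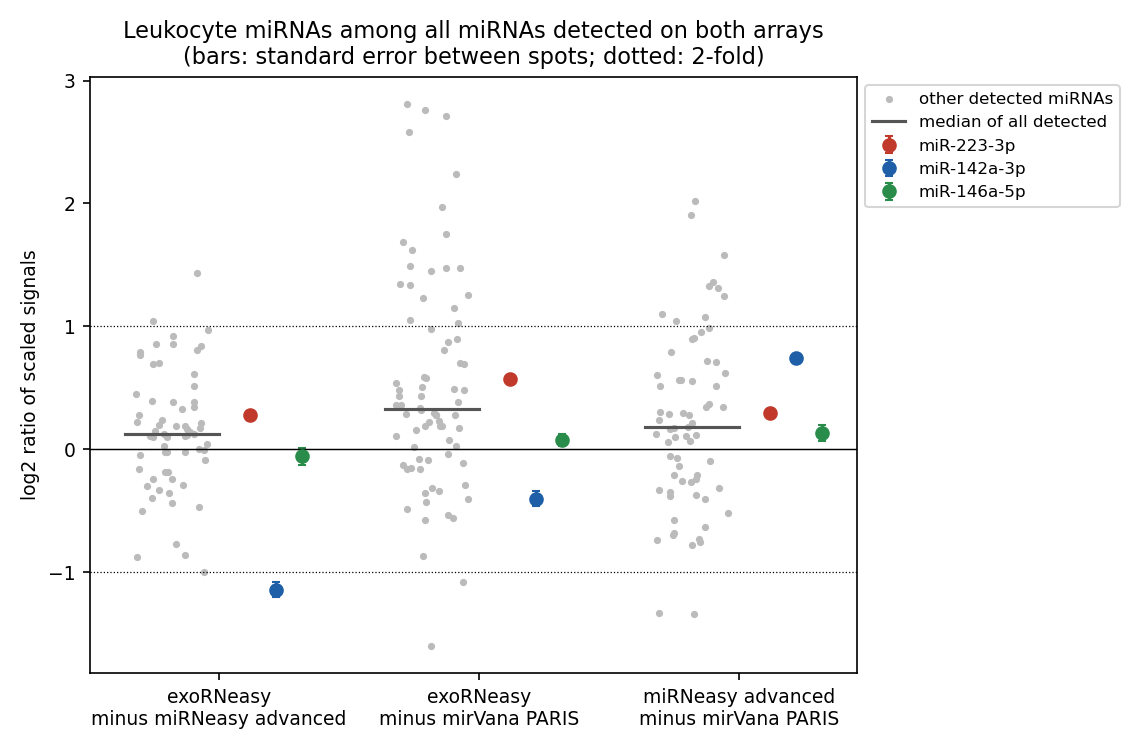
Log2 ratio of scaled signals (y) for the 3 pairs of arrays (x): coloured points are miR-223-3p, miR-142a-3p and miR-146a-5p with standard errors between spots, grey points the other miRNAs detected on both arrays, grey bars the median of all, and dotted lines 2-fold. miR-142a-3p is the lowest of 67 points for exoRNeasy minus miRNeasy advanced, at −1.14, and lies above the median, at 0.74, for miRNeasy advanced minus mirVana PARIS.

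The 5p arm of miR-142a was detected by both of its probes with mirVana PARIS and by neither with the other kits. The chosen probe gave 16.5 ± 2.52 there (15 of 15 spots well above background), 0.59 ± 2.48 with miRNeasy advanced and −2.11 ± 2.72 with exoRNeasy. Its partner gave 15.1 ± 1.72 (13 of 13 spots), 0.0768 and −2.43. A level of 16.5 would have lain below 22.03, the lowest signal detected with exoRNeasy. Against the lowest detected level of the miRNeasy advanced array the unscaled signal was at least 1.34-fold higher with mirVana PARIS, and after scaling neither array gave a bound above 1-fold.

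The lymphoid members gave little signal. miR-150-5p, the mature lymphocyte miRNA, had a mean of 26.9 ± 1.15 with mirVana PARIS (SD, 13 spots, all well above background), 16.2 ± 2.01 with exoRNeasy (14 spots, 0 of them flagged) and 4.90 ± 1.52 with miRNeasy advanced (14 spots). The spots of the 3 arrays did not overlap before scaling, where the median miRNA shifted too. The exoRNeasy mean lay above the negative-control mean plus 3 SD, 15.9, and the scanner software's own gene detection flag was set for it on the exoRNeasy and mirVana PARIS arrays. The miRNeasy advanced mean was close to that of the negative controls, 4.88, yet above 94.6% of all probes of that array, whose undetected probes had a 95th percentile of 3.53, so signal below the detection rule is possible there. Unscaled, miR-150-5p was at least 2.21-fold higher with mirVana PARIS than with miRNeasy advanced and at least 1.25-fold higher than with exoRNeasy. Scaled, no bound exceeded 1-fold. The scaled log2 readings of miR-150-5p were −3.27 with mirVana PARIS and, though not detected, −3.04 with exoRNeasy and −4.00 with miRNeasy advanced. The order of exoRNeasy and mirVana PARIS thus followed the scaling. Its second probe was not detected, at 7.76 with exoRNeasy, 0.27 with miRNeasy advanced and 6.50 with mirVana PARIS.

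miR-181a-5p, the other lymphoid member, was not detected. Its probes averaged −4.25 and 1.44 with exoRNeasy, −2.51 and 0.13 with miRNeasy advanced and −1.001 and 0.21 with mirVana PARIS. All of these were below the negative-control means, as was the median undetected probe of each array.

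Among the inflammatory members only miR-146a-5p was detected. Its chosen probe gave 30.6 ± 3.12 with exoRNeasy, 17.96 ± 2.64 with miRNeasy advanced (14 spots) and 56.9 ± 4.29 with mirVana PARIS (15 spots on the other two). The spots of the 3 arrays did not overlap before scaling, where the median miRNA also shifted. After scaling the log2 levels were −2.12, −2.06 and −2.19, and the ratios of −0.06 ± 0.07, 0.07 ± 0.05 and 0.13 ± 0.06 for exoRNeasy minus miRNeasy advanced, exoRNeasy minus mirVana PARIS and miRNeasy advanced minus mirVana PARIS were within 3 spot errors. Its span over the arrays, 0.13, was the second narrowest of 67 miRNAs, whose median span was 0.61. miR-142a-3p spanned 1.14, rank 15 from the widest, and miR-223-3p 0.57, rank 37. The narrow span belongs to this processing. With normexp the ratios of miR-146a-5p were −0.25, 0.41 and 0.66 in the same order, with quantile normalisation −0.37, −0.47 and −0.10, and without scaling 0.78, −0.90 and −1.67. The second probe of miR-146a-5p was not detected, at −2.38, 2.07 and 7.40 in the order exoRNeasy, miRNeasy advanced, mirVana PARIS, with 1 of 14 spots flagged on the last, so its values rest on 1 probe.

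miR-146b-5p has the same length as miR-146a-5p, 22 bases, and the same base at 20 of them. The 2 differences are G18A and U21C, with the base of miR-146a-5p first and positions counted from 1 at the 5′ end, outside the shared seed. miR-146b-5p was not detected: its probes averaged −5.96 and −2.83, −2.85 and −1.26, and −2.27 and −0.23 on the exoRNeasy, miRNeasy advanced and mirVana PARIS arrays. miR-155-5p was not detected either, at −6.67 and −3.91, −2.76 and −1.14, and −1.59 and −0.27 in that order. Together the 4 members detected nowhere had 9 probes and 27 probe means, of which 27 were below the negative-control mean of their array and 26 inside the central 90% of undetected probes, and 0 of their 349 spots were flagged well above background. A mean below the negative controls was usual for undetected probes. Their 95th percentile was 3.53 with miRNeasy advanced and 3.31 with mirVana PARIS, under the negative-control means of 4.88 and 4.90. With exoRNeasy it was 10.6, above the mean of 5.26, and their median was −3.44. At this signal the 4 members were not detectable, which does not show that serum lacks them.

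A change of one miRNA between arrays can be set against the change of another, and a single scaling factor per array then cancels. miR-223-3p minus miR-142a-3p was 1.42 ± 0.07 log2 units for exoRNeasy minus miRNeasy advanced, a 2.67-fold shift toward miR-223-3p. It was 0.97 ± 0.07 for exoRNeasy minus mirVana PARIS, or 1.96-fold, and −0.45 ± 0.05 for miRNeasy advanced minus mirVana PARIS, a 1.36-fold shift toward miR-142a-3p. Relative to miR-142a-3p, miR-223-3p was therefore highest with exoRNeasy, then mirVana PARIS, then miRNeasy advanced. Scaling by 1 factor per array cannot move these values, and the changes of floor left them as they were. So did the changes of detection rule, except for requiring every probe to be detected. miR-142a-3p then left both comparisons with exoRNeasy, so those differences could not be computed. Under the alternatives that moved the 3 differences, 6, 7 and 8 in the same order, each kept its sign. The values reached 1.06 to 1.76, 0.38 to 1.24 and −0.83 to −0.45. The dimmer miR-223-3p probe gave 1.44, 0.70 and −0.74 against the same miR-142a-3p probe.

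miR-142a-3p minus miR-146a-5p was −1.08 ± 0.09 for exoRNeasy minus miRNeasy advanced, −0.48 ± 0.08 for exoRNeasy minus mirVana PARIS and 0.61 ± 0.07 for miRNeasy advanced minus mirVana PARIS, where normexp gave −0.0421. miR-223-3p minus miR-146a-5p came to 0.33 ± 0.08, 0.49 ± 0.06 and 0.16 ± 0.07 in the same order. Its middle value turned to −0.0475 and its last to −0.73 with normexp. For exoRNeasy minus miRNeasy advanced miR-146a-5p lay between the other members under each of these settings, nearer to miR-223-3p as reported and nearer to miR-142a-3p with normexp, which gave 0.69 to miR-223-3p and −0.39 for miR-142a-3p minus miR-146a-5p.

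**Figure D3:**
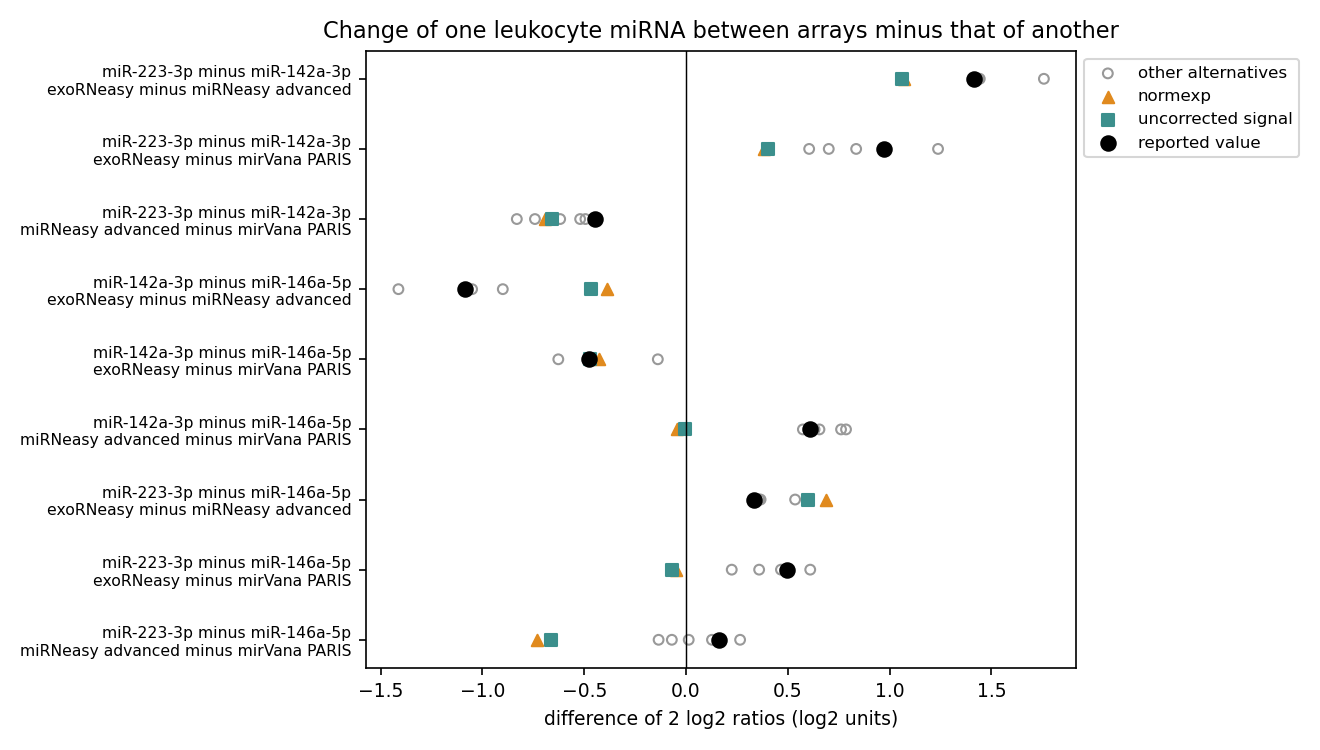
Change of one leukocyte miRNA between a pair of arrays minus the change of another (x, log2 units) for 9 combinations (y). Black points are the reported values, triangles normexp, squares uncorrected signal and open circles the other alternatives; the 3 rows of miR-223-3p minus miR-142a-3p stay on 1 side of 0, and miR-142a-3p minus miR-146a-5p for miRNeasy advanced minus mirVana PARIS reaches −0.0421.

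The miRNAs with profiles most like each member were taken by distance between scaled log2 levels centred over the 3 arrays, among 66 candidates. Closest to miR-223-3p were miR-1895, miR-6769b-5p and miR-92a-3p, at distances of 0.0747, 0.11 and 0.13 log2 units against a median of 0.51. Closest to miR-146a-5p were miR-497a-5p, miR-195a-5p and miR-29a-3p, at 0.0265, 0.0849 and 0.12 against a median of 0.45. miR-142a-3p had no such near match: miR-5126, miR-140-5p and miR-451a lay at 0.37, 0.57 and 0.60 against a median of 0.98. The distances are not divided by the span over the arrays. A miRNA with a wide span, such as miR-142a-3p with 1.14, thus lies farther from most others. These distances describe 3 points per miRNA and carry no error of extraction.

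**Figure D4:**
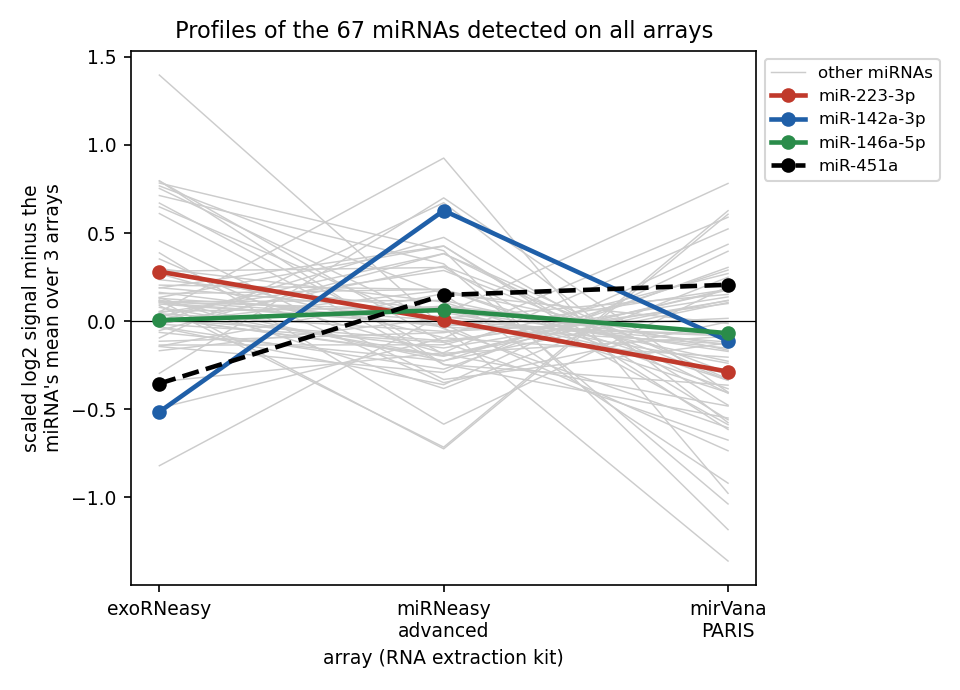
Scaled log2 signal minus each miRNA's mean over the 3 arrays (y) by array (x) for the 67 miRNAs detected on all 3. miR-142a-3p runs from −0.52 with exoRNeasy to 0.63 with miRNeasy advanced and −0.11 with mirVana PARIS, miR-146a-5p stays between −0.07 and 0.06, and the red cell miRNA miR-451a (dashed) is lowest, at −0.35, with exoRNeasy.

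Among the remaining arms and relatives of the members, 1 of 14 was detected on any array. This was miR-150-3p, the other arm of the lymphocyte hairpin, at 13.6 with mirVana PARIS against 0.59 with exoRNeasy and −1.47 with miRNeasy advanced. The other 13, among them the rest of the miR-181 family and both miR-146 3p arms, were not. Of 11 further miRNAs listed for white blood cells, 4 were detected with exoRNeasy, 3 with miRNeasy advanced and 5 with mirVana PARIS. For exoRNeasy minus miRNeasy advanced the 3 measured had a median log2 ratio of 0.69, and the 3 members −0.06, around 0.12 for all 67. The members ranged there from −1.14 to 0.27. For exoRNeasy minus mirVana PARIS the medians were 1.11 over 4 and 0.07 for the members, around 0.33. For miRNeasy advanced minus mirVana PARIS the order was reversed, at 0.12 and 0.29 for the members, around 0.18.

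miR-342-3p, found in lymphoid and myeloid cells, lay on the other side of the median from miR-142a-3p for exoRNeasy minus miRNeasy advanced. Its signals were 72.7, 22.6 and 72.5 on the exoRNeasy, miRNeasy advanced and mirVana PARIS arrays. Its log2 ratio for exoRNeasy minus miRNeasy advanced was 0.86 ± 0.05, and miR-142a-3p minus miR-342-3p came to −1.38 ± 0.07 for exoRNeasy minus mirVana PARIS, or −0.78 with normexp. miR-125b-5p, at 147, 51.0 and 120, and miR-29a-3p, at 347, 179 and 602, had ratios of 0.69 ± 0.05 and 0.12 ± 0.03. miR-26a-5p was detected at 33.1 with exoRNeasy and 23.6 with mirVana PARIS, and miR-322-5p at 20.7 on the last alone.

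Other blood cells leave miRNAs in serum too, and some of the members are shared with platelets. Red cell miRNAs were detected for 8, 8 and 9 of 10 on the exoRNeasy, miRNeasy advanced and mirVana PARIS arrays, with summed signals (all listed miRNAs, negative means taken as 0) of 7371, 5525 and 20855, most of it from miR-451a, at 6245, 4965 and 18052. miR-486a-3p was detected on none and miR-144-5p on the last alone. Platelet and endothelial miRNAs were detected for 3, 3 and 4 of 7, with sums of 1356, 855 and 2009. Sums over different probes are not compared between lists. For exoRNeasy minus miRNeasy advanced, 6 of the 8 red cell miRNAs measured lay above the median of all 67, 0.12. The median of the 8 was 0.21. Those above included miR-16-5p and miR-486a-5p, with log2 ratios of 0.15 ± 0.02 and 0.24 ± 0.04. The red cell miR-451a and miR-144-3p, cut from 1 transcript, lay below it, at −0.50 ± 0.02 and −0.86 ± 0.05. miR-142a-3p lay −0.64 ± 0.07 from miR-451a and −0.28 ± 0.08 from miR-144-3p there, with −1.27 to −0.37 and −0.62 to −0.0223 over the alternatives.

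Against mirVana PARIS, 8 of 8 measured red cell miRNAs had lower log2 ratios than the brighter miR-223-3p probe, with exoRNeasy and with miRNeasy advanced. Among all miRNAs that probe ranked 52 from the lowest of 80 and 41 from the lowest of 71, so most miRNAs lay below it too. The dimmer probe, below the median miRNA in both, had 7 of 8 red cell miRNAs under it, the exception being miR-92a-3p. The 8 are not independent, as miR-451a and miR-144-3p share 1 transcript. miR-223-3p minus miR-16-5p was 1.15 ± 0.04 for exoRNeasy and 1.02 ± 0.04 for miRNeasy advanced, and 0.88 and 0.72 with the dimmer probe. miR-223-3p minus miR-451a was less stable. It was 1.13 ± 0.04 and 0.35 ± 0.04, the dimmer probe gave 0.86 and 0.0551, and quantile normalisation gave 0 and −0.17. miR-142a-3p minus miR-451a was 0.80 ± 0.05 for miRNeasy advanced, with 0.66 to 1.21 over the alternatives, and 0.16 ± 0.06 for exoRNeasy, where quantile normalisation gave −0.60. Against miR-126a-3p, of endothelium and platelets, miR-223-3p stood at −0.30 ± 0.05 and −0.60 ± 0.05 for exoRNeasy and miRNeasy advanced, and at −0.57 and −0.90 with the dimmer probe. Against the platelet-rich miR-24-3p it stood at 0.27 ± 0.04 and 0.20 ± 0.05, and at 0.00478 and −0.10 with the dimmer probe. The part of red cell or platelet RNA in the leukocyte values was not tested, and in serum the number of source cells, the RNA each released and the recovery by the kit cannot be told apart.

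miR-142a-3p has 34.8% G and C bases, and 3 of the 59 miRNAs detected on all arrays and listed by RefSeq have less. miR-223-3p and miR-146a-5p have 40.9% each, with 14 of 59 lower, against a median of 45.5%. Whether base composition bears on the values of miR-142a-3p was not tested. Across miRNAs, which share the arrays and are not replicates, the correlation of base composition with the log2 ratio was computed for each pair. It was −0.14 (Pearson) and 0.0667 (Spearman) for exoRNeasy minus miRNeasy advanced over 59 miRNAs, 0.0675 and 0.13 for exoRNeasy minus mirVana PARIS over 71, and 0.25 and 0.13 for miRNeasy advanced minus mirVana PARIS over 61.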

How the data were processed

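The values are linear spot intensity readings of 1-colour Agilent arrays, as deposited. Per the file headers they were made with Agilent Feature Extraction 11.5.1.1 (11.5 in the submitters' processing notes), background-subtracted, with a spatial detrend fit recorded and no dye normalisation probes. The deposited value table held the same intensity, with all 58594 values per array within 0.5% by spot number, uncentred, with column medians of −2.77 (exoRNeasy), −1.51 (miRNeasy advanced) and −1.44 (mirVana PARIS).

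Control and outlier-flagged spots were left out, and no spot was saturated. Spot signals were raised to at least 1, put on the log2 scale and averaged per probe. A miRNA took its probe detected on most arrays, then the brightest. The call of size was 2-fold and over 3 spot errors. For a bound, the dim array stood at its own reading or at its lowest detected signal, whichever was higher. Python 3.11.15 with pandas 2.3.3 was used, and limma 3.58.1 for normexp with an offset of 50, run on pixel medians because the files have no pixel means.

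Members, lists and comparisons were chosen with earlier results of these data known. All members were named, with listed miRNAs detected on an array, the 3 nearest profiles, and fixed red cell and platelet miRNAs; miR-92a-3p as a red cell miRNA, miR-144-3p, miR-144-5p and miR-486a-3p were named after their values were seen. Alternatives covered scaling, background, probe choice, floor, outliers and detection.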

Additional observations from a re-analysis of the deposited data

How the results depend on the processing

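No paired analysis was possible because each kit had 1 array. For the same reason no array could be left out. The number of arrays and the signal over background limit every value here. Requiring every probe of a miRNA to be detected left 1 member on the exoRNeasy array and 3 on the mirVana PARIS array, and 0 past 2-fold between exoRNeasy and miRNeasy advanced, because miR-142a-3p then leaves that comparison (its second probe, not detected with exoRNeasy, had −1.38); the other 16 of 18 detection counts were within 1.5 times. Counts past 2-fold followed the scaling. Without scaling and with the labelling spike-in, 1 member was higher on exoRNeasy than on miRNeasy advanced, and the 1 lower member became 0, as it did with the 75th percentile over all probes, the hybridisation spike-in, normexp and uncorrected signal. Lower on exoRNeasy than on mirVana PARIS were 1 without scaling, 2 with the 75th percentile over all probes, 1 with the labelling and 2 with the hybridisation spike-in, and lower on miRNeasy advanced than on mirVana PARIS 3, 3, 2 and 3 in that order.

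Of 170 values for single log2 ratios, 66 moved by over 1 SD between spots. Of 171 values for differences between log2 ratios, 108 equalled the reported value to 4 digits, most of them because 1 factor per array cancels or the rule leaves these probes untouched. Of the other 63, 39 moved by less than 1 SD. The rest are given in the order exoRNeasy minus miRNeasy advanced, exoRNeasy minus mirVana PARIS, miRNeasy advanced minus mirVana PARIS. For miR-223-3p minus miR-142a-3p, normexp gave 1.07, 0.38 and −0.69 and uncorrected signal 1.06, 0.40 and −0.66. Total gene signal gave 1.76 and 1.24 for the first pairs, quantile normalisation 0.60 and −0.83 for the last ones, and the other miR-223-3p probe 0.70 and −0.74 for these. For miR-223-3p minus miR-146a-5p, normexp gave 0.69, −0.0475 and −0.73, uncorrected signal −0.0676 and −0.67 for the last pairs and the other miR-223-3p probe 0.22 and −0.13. For miR-142a-3p minus miR-146a-5p, normexp gave −0.39 and uncorrected signal −0.46 for the first pair, quantile normalisation −0.14 for the second, and normexp −0.0421 and uncorrected signal −0.00487 for the third. The cause was not tested. Detection by signal over the negative controls, and the alternatives for differences from red cell, platelet and other leukocyte miRNAs, were added after the data were seen.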
